A study of Mus musculus with 32 samples.

Results

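The clustered protocadherins are cell-surface adhesion proteins of the cadherin superfamily, encoded in mouse by the neighbouring alpha, beta and gamma gene clusters. All rows of the total RNA count table whose gene symbol begins with Pcdha, Pcdhb or Pcdhg and continues with a member number or a C-type name were taken, without those marked as pseudogenes by "-ps". This gave 57 genes of the 51267 features in the table. They were 11 alpha genes, 2 alpha C genes, 22 beta genes, 12 gamma A genes, 7 gamma B genes and 3 gamma C genes.

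The RNA came from primary hippocampal neurons, cultured from newborn (P0) mice and treated on day 16 in vitro for 30 minutes. There were 6 libraries from neurons given 50 µM forskolin (FSK), 6 from neurons given 30 µM DHPG and 4 from neurons given an equal volume of the vehicle DMSO. Forskolin activates adenylyl cyclase and so raises cyclic AMP, and DHPG switches on the group I metabotropic glutamate receptors, mGluR1 and mGluR5. The series asks which RNAs depend on these pathways, and no genetic change, strain or sex is given in the labels. The labels do not say whether the libraries of a group came from separate cultures or animals, so p-values measure the spread between these libraries, which may be technical.

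In the alpha and gamma clusters each variable exon has its own promoter and encodes the extracellular, transmembrane and first intracellular part of a protein, and splicing joins it to constant exons that all genes of the cluster share. Beta genes consist of a single coding exon. Single neurons switch on a small, largely random set of the alpha, beta and gamma A and B promoters, while the C-type genes are used more uniformly. The proteins bind their like on other membranes, and the combination on a neuron's surface lets its dendrites and axons tell self from non-self. The DNA-binding factor CTCF and the cohesin ring bring the chosen promoters to distant enhancers, and DNA methylation keeps others silent.

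All 57 genes lie on chromosome 18 in RefSeq (GRCm38.p6). The 13 alpha and alpha C genes span 36930285 to 37188897, and every one ends at or after 37187657, behind the shared constant exons. The 22 beta genes follow from 37264998 to 37521419, with spans of 2340 to 5271 bases. The 22 gamma genes lie between 37661775 and 37841873 and all end at or after 37840489. RefSeq lists Pcdhgb8 as a transcribed pseudogene, and it was kept because its symbol met the rule.

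Shared exons and close paralogs make the count of a single gene uncertain. Salmon, named in the submitters' processing notes, divides a read that fits several transcripts between them. Of the deposited values of alpha and gamma genes 0% were whole numbers, against 6.82% of the values of beta genes and 61.5% of the values of all features with a count. The last share includes zeros, which are whole, and many features of low count, so it is not matched in level. Among beta genes the share was 100% for Pcdhb1, 31.25% for Pcdhb15, 12.5% for Pcdhb2 and 6.25% for Pcdhb19. Every other beta gene had 0%, like the alpha and gamma genes. A difference between neighbouring genes of a cluster may therefore partly be a difference in how shared reads were divided, which was not tested.

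Levels are given as CPM, the count of a gene scaled to a common library size, with sizes corrected by TMM factors (trimmed mean of M values). All 57 genes passed the filter on low counts, as did 17173 features in all, and together they took 0.0815% to 0.117% of a library's counts. The libraries fell into sets that the labels do not describe. Of these 7 were deep, with 38409918 to 59958600 counts, of which mitochondrial ribosomal RNA took 10.8% to 27.7%. These were FSK 4 to 6, DHPG 6 and DMSO 2 to 4. The other 9 were shallow, with 20677117 to 24892959 counts and 1.47% to 2.92% mitochondrial ribosomal RNA. These were FSK 1 to 3, DHPG 1 to 5 and DMSO 1. Treatment and set are therefore unevenly crossed, and each comparison below is also given with the set as a term or within a set. In the fits within a set, the single deep DHPG library and the single shallow DMSO library are assumed to vary like the other libraries.

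The neuronal label was checked against marker genes. The 10 excitatory markers summed to 866 to 1256 CPM in FSK, 1080 to 1713 in DHPG and 1250 to 1689 in DMSO libraries. The 10 astrocyte markers summed to 5067 to 7615 CPM in FSK, 3362 to 6130 in DHPG and 4167 to 6951 in DMSO libraries, so the cultures held glial as well as neuronal RNA. The libraries FSK 4 and FSK 5 stood apart, with microglial markers at 157 and 297 CPM against 5.56 to 32.5 in the other 14, and with inhibitory neuron markers at 328 and 267 CPM against 367 to 612. Fewer cells of a type and less RNA per cell cannot be told apart in these bulk samples. Fos, an activity-induced gene, averaged 544 ± 170 CPM in FSK libraries, 208 ± 95.3 in DHPG libraries and 93.0 ± 56.97 in DMSO libraries (SD, n = 6, 6 and 4). It rose in FSK against DMSO (adjusted p = 0.0212, edgeR) and did not pass in DHPG against DMSO (adjusted p = 0.4005, edgeR). Arc and Egr2, chosen for the same check, averaged 147 ± 35.1 and 14.8 ± 4.68 CPM in DHPG libraries. In DMSO libraries they averaged 43.6 ± 25.4 and 5.55 ± 2.41 CPM. For both, every DHPG library was above every DMSO library, though neither passed (adjusted p = 0.261 and 0.325, edgeR). Both rose in FSK against DMSO (adjusted p = 0.00702 and 0.00721, edgeR).

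The C-type genes are described first, since their promoters are used most uniformly. Pcdhgc3 lies at the 3′ end of the gamma cluster, and its protein binds Axin1 and dampens Wnt signalling. It had 172, 156, 190, 420, 469 and 199 CPM in FSK 1 to 6, 173, 196, 206, 145, 169 and 306 CPM in DHPG 1 to 6, and 197, 395, 329 and 295 CPM in DMSO 1 to 4. The groups overlapped, and the highest values in each came from deep libraries.

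Pcdhgc5, a C-type gene switched on late in postnatal maturation, had 57.8, 67.4 and 128 CPM as its lowest, median and highest level in FSK libraries, 41.8, 57.2 and 157 CPM in DHPG libraries, and 50.8, 87.2, 138 and 111 CPM in DMSO 1 to 4. Pcdhgc4, the gamma isoform that many neurons need for survival, had 28.8, 36.1 and 48.9 CPM in FSK libraries, 25.9, 34.8 and 57.6 CPM in DHPG libraries, and 37.2, 46.0, 52.1 and 47.7 CPM in DMSO 1 to 4. For both genes the highest value of the FSK and of the DHPG libraries was that of replicate 6.

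Pcdhac2, which serotonergic axons need for their even spacing, had 25.6, 50.4 and 60.3 CPM in FSK libraries, 41.1, 54.1 and 69.3 CPM in DHPG libraries, and 61.4, 36.5, 48.1 and 49.7 CPM in DMSO 1 to 4. Serotonergic neuron markers summed to at most 1.69 CPM in any library. Pcdhac1, the other alpha C gene, had 1.28, 2.75 and 4.33 CPM in FSK libraries, 2.21, 2.87 and 3.35 CPM in DHPG libraries, and 1.90, 2.45, 2.596 and 2.43 CPM in DMSO 1 to 4. All 3 groups overlapped for both alpha C genes.

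Counts of the remaining alpha and gamma genes depend on transcript length, so the following means describe counts per gene and not an order of expression per length. In the alpha cluster the mean over all 16 libraries was 9.17 CPM for Pcdha4, 9.04 for Pcdha11 and 8.65 for Pcdha12, and 0.571 for Pcdha8. In gamma A it was 32.1 CPM for Pcdhga3, 28.5 for Pcdhga1 and 24.1 for Pcdhga2, and 6.81 for Pcdhga5. In gamma B it was 19.3 CPM for Pcdhgb4, 19.2 for Pcdhgb7 and 19.2 for Pcdhgb6, and 2.62 for Pcdhgb8. Each of these genes encodes a variable extracellular domain joined to the constant tail of its cluster, except Pcdhgb8.

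The single-exon beta genes can be compared per length, taking the RefSeq span as length. They are ordered here by their mean over all 16 libraries, and the order within a treatment can differ. Pcdhb22, the last beta gene, had the highest level per kilobase, with 5.97 ± 0.85 CPM in FSK, 4.87 ± 0.52 in DHPG and 5.65 ± 0.48 in DMSO libraries. Pcdhb9 followed with 5.10 ± 1.27 CPM per kilobase in FSK, 4.81 ± 0.92 in DHPG and 5.11 ± 0.43 in DMSO libraries, and the mean ± SD of the 2 genes overlapped in all 3 groups. Pcdhb8, the third in the mean over all libraries, had 2.38 ± 0.46 CPM per kilobase in FSK, 3.29 ± 0.69 in DHPG and 3.04 ± 0.80 in DMSO libraries. Its mean ± SD lay below that of Pcdhb9 in FSK and DMSO and overlapped it in DHPG.

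From Pcdhb8 on, Pcdhb17, Pcdhb10, Pcdhb14 and Pcdhb7 followed, and neighbours among these 5 overlapped in mean ± SD in every group. Pcdhb15 came last in the mean over all libraries, with 0.41 ± 0.046 CPM per kilobase in FSK, 0.32 ± 0.13 in DHPG and 0.47 ± 0.070 in DMSO libraries (SD, n = 6, 6 and 4), next to Pcdhb1 with 0.55 ± 0.24, 0.27 ± 0.12 and 0.44 ± 0.18 in the same groups. In DHPG and DMSO libraries Pcdhb1 was the lower of the pair, within their spread. Pcdhb18, the third beta gene by uncorrected counts with a mean of 10.1 CPM, was eighth per kilobase at 2.01 CPM over all libraries. The 22 genes thus covered a range from 0.393 to 5.48 CPM per kilobase when averaged over all libraries.

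Summed over a cluster, the gamma C, gamma B and alpha C levels separated the library sets. The gamma C genes summed to 519, 585 and 376 CPM in FSK 4 to 6, 520.3 in DHPG 6 and 528, 519 and 453 in DMSO 2 to 4, all deep. They summed to 265, 249.6 and 291 CPM in FSK 1 to 3, 223 to 283 in DHPG 1 to 5 and 285 in DMSO 1, all shallow. The deep and the shallow libraries did not overlap, in any treatment.

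Gamma B sums also separated the sets, at 116 to 143 CPM in deep against 72.5 to 91.6 CPM in shallow libraries. The alpha C sums went the other way, at 27.3 to 52.1 CPM in deep against 56.4 to 72.4 CPM in shallow libraries. Beta sums overlapped, at 127 to 164 CPM in deep and 120.5 to 162 CPM in shallow libraries. As a share of all counts in the 57 genes, gamma C took 36.8% to 50.5% in deep and 28.1% to 35.0% in shallow libraries.

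**Figure D1:**
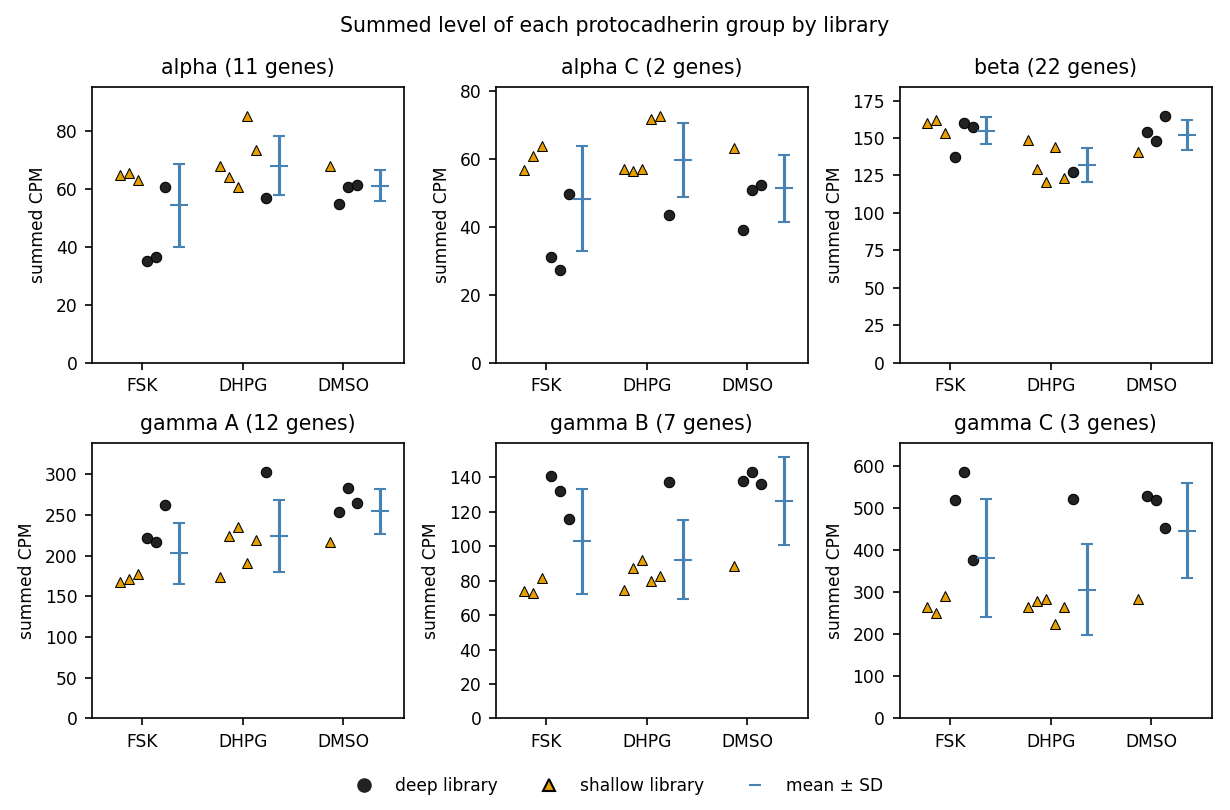
Summed level (CPM, vertical axis from 0) of each protocadherin group in FSK, DHPG and DMSO libraries; each point is a library (black circle deep, orange triangle shallow), and the bar is the group mean ± SD. Gamma C sums of 376 to 585 CPM in deep libraries lie above the 223 to 291 CPM of shallow ones within every treatment, while beta sums do not separate by set.

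The difference between the sets at the same treatment was read from an edgeR fit with treatment and set as terms, a comparison added after the data were seen. Of the 57 genes 28 differed at an adjusted p under 0.05, against 34.5% of all features tested, a count above that background share, with no test made of the difference. Of these 19 were higher and 9 lower in deep libraries, against 18.9% and 15.6% of all features. The direction went by cluster: 18 of the 22 gamma genes were higher and 0 lower, 7 of the 13 alpha and alpha C genes were lower and 0 higher, and 1 beta gene was higher and 2 were lower of 22. The median log2 difference, deep minus shallow, was 0.42 in gamma A, 0.79 in gamma B and 0.91 in gamma C, -0.01 in beta, -0.47 in alpha and -0.54 in alpha C, and 0.00 over all features.

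The pseudogene Pcdhgb8 had the widest difference, 1.84 ± 0.34 on the log2 scale (adjusted p = 0.000895, edgeR), with 1.08 to 6.46 CPM in deep and 0.635 to 1.42 CPM in shallow libraries. Its deep values split, since FSK 4 and FSK 5 had 1.08 and 1.77 CPM and the other 5 deep libraries at least 5.05 CPM. Pcdhga5, a variable gamma A gene, had 6.97 to 12.9 CPM in deep and 2.64 to 5.16 CPM in shallow libraries, a log2 difference of 1.502 ± 0.19 (adjusted p = 4.22e-05, edgeR). The sets did not overlap for Pcdhga5.

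In the other direction Pcdha2, an alpha gene near the 5′ end of its cluster, had 2.03 to 4.28 CPM in deep and 4.58 to 9.10 CPM in shallow libraries, a log2 difference of -0.99 ± 0.20 (adjusted p = 0.00141, edgeR). Pcdhac2 had 25.6 to 49.7 CPM in deep and 53.0 to 69.3 CPM in shallow libraries, with a log2 difference of -0.62 ± 0.14 (adjusted p = 0.00279, edgeR). Genes whose sets did not overlap numbered 7 higher in deep libraries, against 6.03% of all features, and 3 lower, against 3.59%. The 7 were Pcdhga5, Pcdhga7, Pcdhgb2, Pcdhgb5, Pcdhgb6, Pcdhgb7 and Pcdhgc4, all gamma genes, and the 3 were Pcdha2, Pcdha12 and Pcdhac2.

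Without FSK 4 and FSK 5, 18 genes were higher and 3 lower, beside 2252 and 1898 of 16723 features, and the alpha median was -0.25. Without TMM factors the median of all features moved to -0.20, and 12 genes were higher and 17 lower, beside 1935 and 5880 of 17173 features. The cluster medians then ranged between 0.71 in gamma C and -0.74 in alpha C. Read relative to that shift, gamma genes stayed above and alpha genes below the other features. Other values separated the sets too, beside mitochondrial ribosomal RNA. Choroid plexus and ependymal markers summed to 168 to 633 CPM in deep and 81.6 to 130.4 CPM in shallow libraries, and astrocyte markers to 6130 to 7615 CPM in deep and 3362 to 5565 CPM in shallow libraries, both without overlap. Fibroblast, mural and endothelial markers summed to 114 to 385 CPM in deep and 54.4 to 121 CPM in shallow libraries, and cycling-cell markers to 65.8 to 242 CPM in deep and 123 to 245 CPM in shallow libraries. The part of these values in the difference was not tested.

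**Figure D2:**
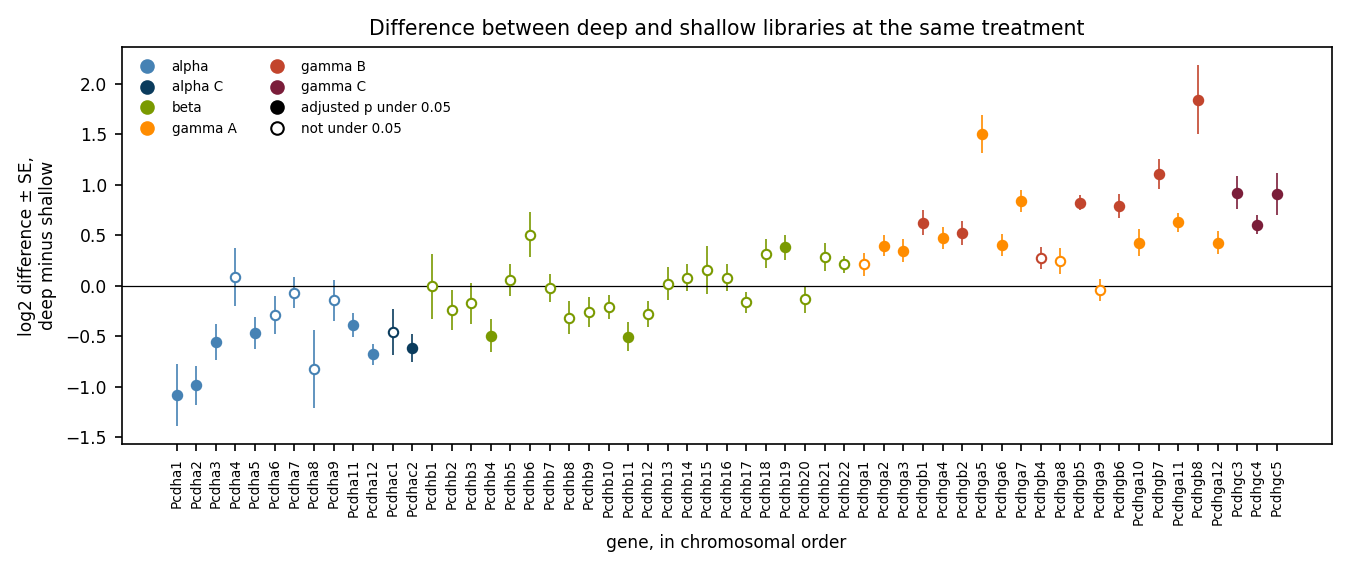
Log2 difference between deep and shallow libraries at the same treatment (vertical axis, ± SE) for each of the 57 genes in chromosomal order, coloured by group; filled points have an adjusted p under 0.05. Gamma genes lie mostly above 0 (18 of 22 filled), alpha genes mostly below, and beta genes around 0.

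**Figure D3:**
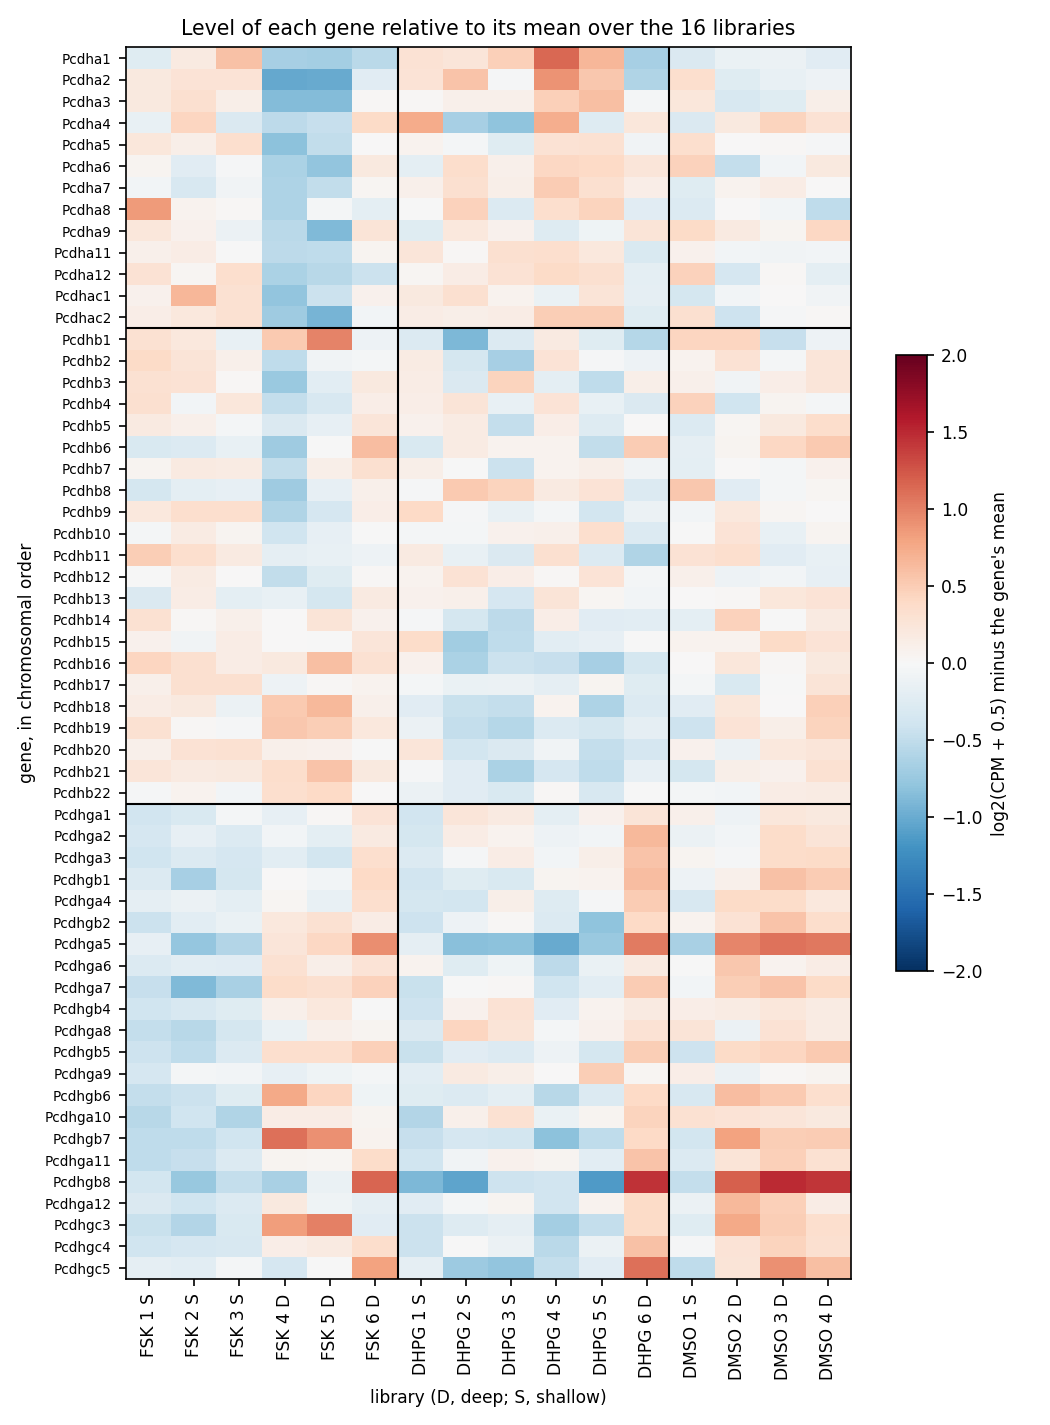
Level of each gene in each library as log2(CPM + 0.5) minus the gene's mean over the 16 libraries, with genes in chromosomal order down the page and libraries across (D deep, S shallow); red is above and blue below the mean, and colours end at 2 log2 units. The gamma rows at the bottom are redder in the D columns of all 3 treatments, and most alpha rows at the top are bluest in FSK 4 or FSK 5.

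FSK 4 and FSK 5 also departed from the third deep FSK library. The 11 alpha genes summed to 35.2 and 36.5 CPM there against 60.5 CPM in FSK 6, the lowest sums of all 16 libraries. Pcdhgc3 had 420 and 469 CPM there against 199 CPM in FSK 6, the highest of all libraries. Excitatory markers summed to 866 and 924 CPM there, the lowest of all libraries, and choroid plexus and ependymal markers to 633 and 506 CPM, the highest. The part of these values in the low alpha and high Pcdhgc3 counts was not tested.

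FSK was compared with DMSO to find genes that depend on cyclic AMP. Of the 57 genes 0 differed at an adjusted p under 0.05 (edgeR), against 0.809% of all features tested, and a count of 0 in 57 is near that background. At an unadjusted p under 0.05 there were 4, all lower in FSK, against 21.3% of all features, or 10.4% counting only the lower ones. The DESeq2 Wald test called 0, against 7.43% of all features. By limma-voom with sample weights 23 passed, 1 higher and 22 lower in FSK, mostly gamma genes. The count in either direction is near the 35.2% of all features, and the share of all features by direction is not given here. None of the 57, or 0, passed in the authors' deposited table, against 8.00% of the features with an adjusted p there.

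The median log2 fold change, FSK over DMSO, was -0.15 against 0.02 over all features, and 44 of the 57 genes had a negative value. By cluster the median was -0.34 in gamma A, -0.27 in gamma B and -0.30 in gamma C, where all 22 values were negative, and -0.15 in alpha, 0.04 in alpha C and -0.00 in beta. With the library set as a term the gamma medians were -0.21, -0.21 and -0.04, while alpha was -0.30, alpha C -0.14 and beta -0.08. In that fit 0 genes passed, against 9.45% of all features. Within deep libraries 0 passed against 11.8%, and within shallow libraries 0 passed against 0.0466%. Both groups hold 3 deep libraries, but FSK also holds 3 shallow ones and DMSO only 1, and gamma genes were lower in shallow libraries.

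The smallest p belonged to Pcdhga12, the last gamma A gene. It had 9.56, 10.8 and 14.6 CPM as lowest, median and highest level in FSK libraries, and 11.7, 20.3, 17.9 and 14.2 CPM in DMSO 1 to 4. The groups overlapped, with 4 of 6 FSK libraries below every DMSO library. The log2 fold change was -0.50 ± 0.17 (adjusted p = 0.126, edgeR), -0.47 within deep and -0.21 within shallow libraries. The authors' deposited table gives -0.51 with an adjusted p of 0.0705.

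Pcdhga3, an early gamma A gene, had 23.8, 25.4 and 39.6 CPM in FSK libraries and 32.7, 30.9, 40.6 and 40.9 CPM in DMSO 1 to 4. Only FSK 6 reached the DMSO range, and the log2 fold change was -0.40 ± 0.17 (adjusted p = 0.187, edgeR). Pcdhga8 had 13.5, 16.9 and 21.7 CPM in FSK libraries and 24.1, 18.5, 24.6 and 22.6 CPM in DMSO 1 to 4. Its groups overlapped too, with a log2 fold change of -0.37 ± 0.16 (adjusted p = 0.202, edgeR), which was -0.11 within deep and -0.73 within shallow libraries.

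Groups without overlap numbered 1 of 57, against 7.98% of all features, or 4.36% counting only lower ones: every FSK library was below every DMSO library for Pcdhga10, named here after its values were seen. It had 8.58, 11.9 and 14.8 CPM in FSK libraries and 16.6, 16.1, 15.7 and 15.2 CPM in DMSO 1 to 4, with a log2 fold change of -0.43 ± 0.20 (adjusted p = 0.228, edgeR), which was -0.12 within deep and -0.86 within shallow libraries.

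The 5 C-type genes did not pass in FSK against DMSO. The log2 fold change was 0.19 ± 0.28 for Pcdhac1, -0.11 ± 0.23 for Pcdhac2, -0.18 ± 0.32 for Pcdhgc3, -0.30 ± 0.21 for Pcdhgc4 and -0.35 ± 0.36 for Pcdhgc5, with adjusted p between 0.421 and 0.830 (edgeR). For all but Pcdhgc4 the SE was larger than the value. The sign of 4 of the 5 turned under at least 1 other setting.

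DHPG was compared with DMSO to find genes that depend on the group I receptors. Here too 0 of 57 genes passed (edgeR), against 0.00582% of all features, which is a single feature. At an unadjusted p under 0.05 there were 8, all lower in DHPG, against 12.4% of all features (8.05% lower), and 0 had groups without overlap, against 1.31%. The DESeq2 Wald test called 0, against 0.0408% of all features. By limma-voom with sample weights 21 passed, all of them beta or gamma genes lower in DHPG. The count in either direction is again near the share of all features, 34.7%, whose split by direction is not given here. None of the 57, or 0, passed in the authors' deposited table, against 1.48% of its features.

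The median log2 fold change, DHPG over DMSO, was -0.18 against -0.01 over all features. It was -0.21 in beta, -0.19 in gamma A, -0.49 in gamma B and -0.46 in gamma C, and 0.18 in alpha and 0.23 in alpha C. With the library set as a term beta stayed at -0.24, while gamma A was 0.06, gamma B -0.03, gamma C 0.00, alpha -0.04 and alpha C -0.10. In that fit, and within deep and within shallow libraries, 0 genes passed, against 0% of all features. Only 1 DHPG library is deep and only 1 DMSO library is shallow, so the comparison without the set term mixes treatment with set.

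The 3 genes of smallest p were beta genes from the 3′ part of their cluster. Pcdhb16 had 4.95, 5.81 and 8.68 CPM in DHPG libraries and 8.13, 9.52, 8.23 and 9.31 CPM in DMSO 1 to 4. All DHPG libraries but DHPG 1 were below every DMSO library, and the log2 fold change was -0.53 ± 0.15 (adjusted p = 0.400, edgeR), with -0.53 within deep and -0.42 within shallow libraries. The authors' deposited table gives -0.52 with an adjusted p of 0.0864.

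Pcdhb19 had 5.18, 6.30 and 7.28 CPM in DHPG libraries and 5.83, 9.68, 8.67 and 11.0 CPM in DMSO 1 to 4. Its low DMSO value was the shallow library, and the log2 fold change of -0.49 ± 0.17 (adjusted p = 0.400, edgeR) was 0.07 within shallow libraries. Pcdhb18 had 6.22, 7.54 and 10.3 CPM in DHPG libraries and 8.31, 11.6, 9.89 and 13.9 CPM in DMSO 1 to 4, and its log2 fold change was -0.49 ± 0.18 (adjusted p = 0.400, edgeR). DHPG 4 overlapped the DMSO range, and the log2 fold change was -0.56 within deep and -0.097 within shallow libraries.

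The C-type genes did not pass in DHPG against DMSO either. The log2 fold change was 0.25 ± 0.28 for Pcdhac1, 0.22 ± 0.23 for Pcdhac2, -0.61 ± 0.32 for Pcdhgc3, -0.32 ± 0.21 for Pcdhgc4 and -0.46 ± 0.36 for Pcdhgc5, with adjusted p between 0.408 and 0.650 (edgeR). With the library set as a term these were -0.05, -0.14, -0.07, 0.00 and 0.02.

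**Figure D4:**
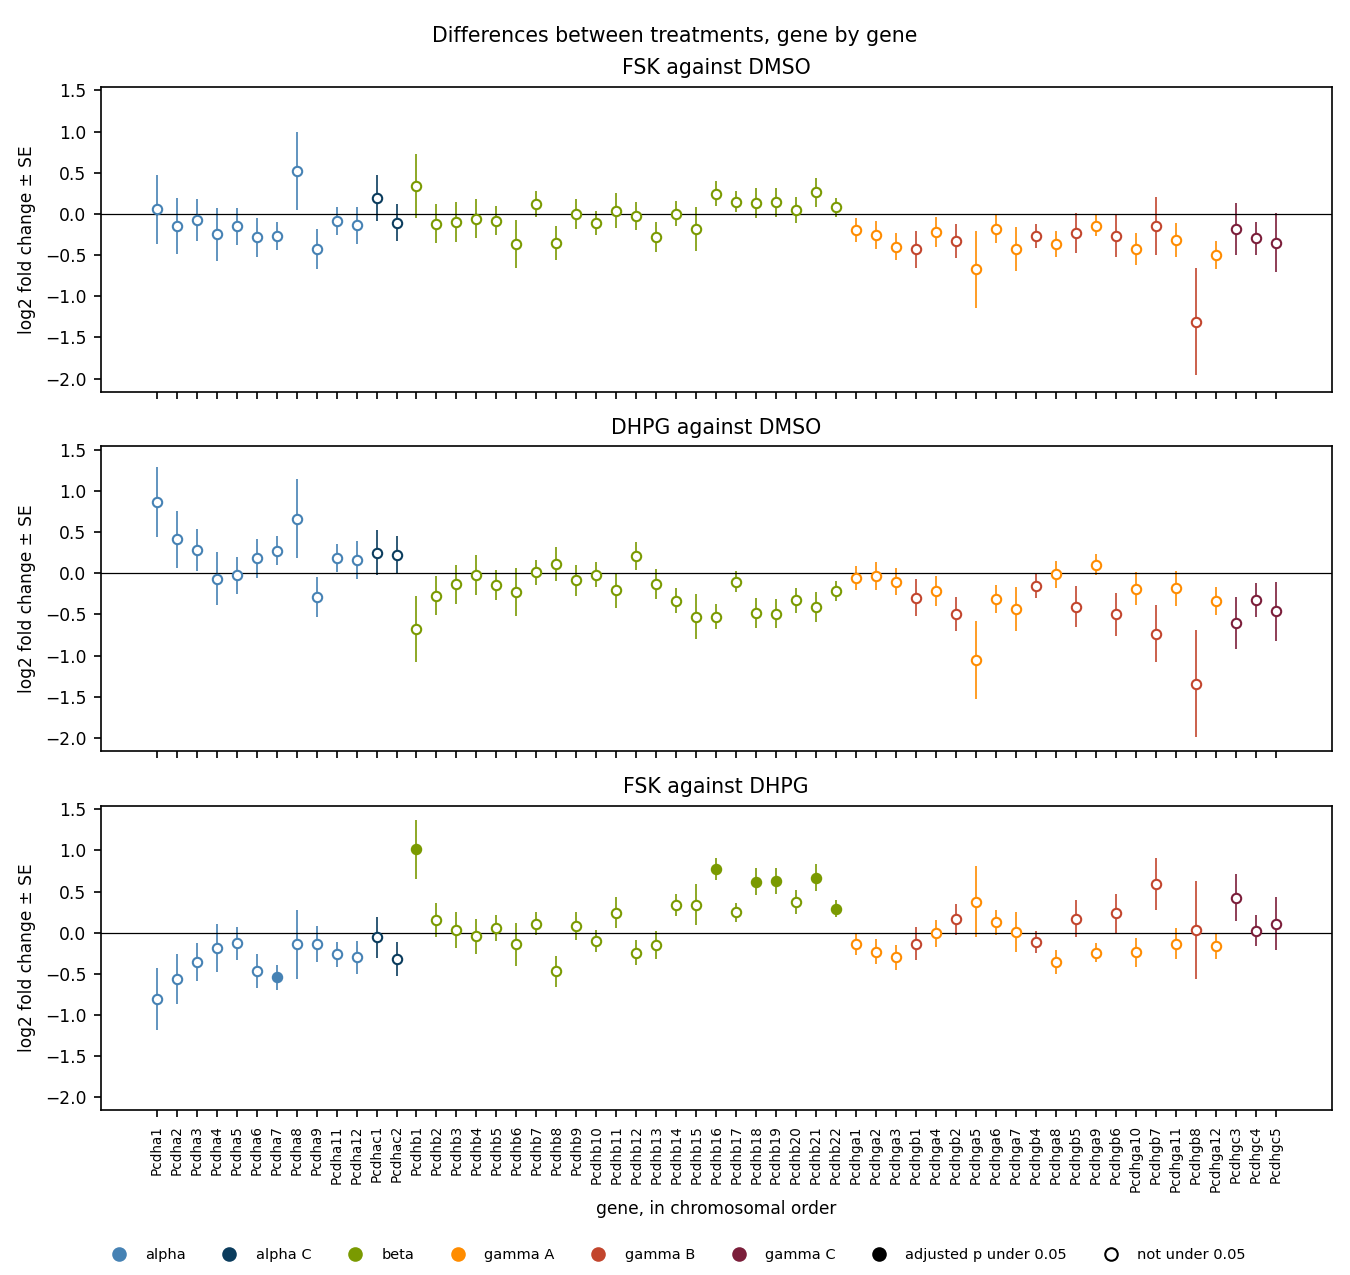
Log2 fold change ± SE (vertical axis) of each of the 57 genes in chromosomal order, for FSK against DMSO, DHPG against DMSO and FSK against DHPG; points are coloured by group and filled where the adjusted p is under 0.05. No point is filled in the comparisons with DMSO, and 7 are filled in FSK against DHPG, 6 of them beta genes above 0.

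FSK was also set directly against DHPG. Of the 57 genes 7 differed at an adjusted p under 0.05 (edgeR), against 30.8% of all features. Of these 6 were higher in FSK, all of them beta genes, against 16.3% of all features, and 1 was lower, the alpha gene Pcdha7, against 14.4%. The count is below that background share, with no test made of the difference. Without TMM factors 4 were higher and 2 lower, against 1760 and 750 features in all.

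Pcdhb16, like the other beta genes a homophilic adhesion protein without the shared constant tail, had 11.1, 10.3, 9.10, 9.38, 12.6 and 10.1 CPM in FSK 1 to 6 and 8.68, 5.07, 5.89, 5.74, 4.95 and 6.23 CPM in DHPG 1 to 6. Every FSK library was above every DHPG library. The log2 fold change was 0.77 ± 0.14 (adjusted p = 0.0164, edgeR), with 0.78 within deep and 0.74 within shallow libraries, and 0.75 (adjusted p = 0.0181, edgeR) with the set as a term.

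Pcdhb21 had 4.68, 4.45, 4.51, 5.08, 6.02 and 4.497 CPM in FSK 1 to 6 and 3.82, 3.26, 2.32, 2.98, 2.59 and 3.40 CPM in DHPG 1 to 6. The groups did not overlap, and the log2 fold change was 0.67 ± 0.16 (adjusted p = 0.0168, edgeR), with 0.61 within deep and 0.60 within shallow libraries. Pcdhb19 had 9.97, 8.08, 7.78, 11.7, 11.3 and 9.24 CPM in FSK 1 to 6 and 7.28, 5.54, 5.18, 6.46, 6.13 and 6.94 CPM in DHPG 1 to 6. All 6 FSK libraries were again above all DHPG libraries, with a log2 fold change of 0.63 ± 0.16 (adjusted p = 0.0172, edgeR), 0.64 within deep and 0.49 within shallow libraries.

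Pcdhb18 had 11.0, 11.4, 9.02, 14.3, 15.7 and 10.6 CPM in FSK 1 to 6 and 8.29, 7.07, 6.90, 10.3, 6.22 and 8.00 CPM in DHPG 1 to 6. In 5 of 6 FSK libraries it was above all DHPG libraries, and the log2 fold change was 0.62 ± 0.17 (adjusted p = 0.0191, edgeR). Pcdhb22 had 16.4, 17.5, 16.0, 21.0, 22.1 and 16.7 CPM in FSK 1 to 6 and 15.3, 14.1, 13.4, 16.9, 13.3 and 16.6 CPM in DHPG 1 to 6. The groups overlapped, and FSK 4 and FSK 5 were highest. The log2 fold change was 0.29 ± 0.11 (adjusted p = 0.0445, edgeR), and with the set as a term 0.22 (adjusted p = 0.0935, edgeR).

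Pcdhb1, the first beta gene, had the lowest counts of the 7, with 1.29, 1.19, 0.807, 1.60, 2.40 and 0.849 CPM in FSK 1 to 6 and 0.702, 0.279, 0.705, 1.15, 0.726 and 0.483 CPM in DHPG 1 to 6. The groups overlapped, and the log2 fold change was 1.01 ± 0.36 (adjusted p = 0.0434, edgeR), or 1.02 with an adjusted p of 0.0696 (edgeR) with the set as a term.

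Pcdha7, a variable alpha gene whose protein carries the alpha constant tail, was the 1 gene that passed as lower in FSK than in DHPG. Against DMSO its log2 fold change was -0.26 in FSK and 0.28 in DHPG, and neither passed. It had 4.51, 3.67, 4.44, 2.88, 3.18 and 4.85 CPM in FSK 1 to 6 and 5.09, 5.96, 5.13, 6.85, 5.99 and 5.18 CPM in DHPG 1 to 6. Every FSK library was below every DHPG library, the 2 lowest being FSK 4 and FSK 5. The log2 fold change was -0.54 ± 0.15 (adjusted p = 0.0219, edgeR), with -0.51 within deep and -0.47 within shallow libraries.

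Groups without overlap were found for 4 of the 57 genes, against 7.24% of all features: Pcdhb16, Pcdhb19 and Pcdhb21 higher in FSK, against 3.21%, and Pcdha7 lower, against 4.03%. With the set as a term 10 genes passed, against 23.3% of all features, 5 of them among the 7. Within deep libraries 1 passed (Pcdhga2, lower in FSK) against 15.1%, and within shallow libraries 0 passed against 0.0466%. Without FSK 4 and FSK 5, 0 of 57 passed, as did only 3 features in all, and with the set as a term besides, Pcdhb16 and Pcdhb21 passed, against 9.27% of all features. Without FSK 5 alone 3 passed, against 10.6% of all features, and without FSK 6 alone 10, against 29.6%.

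**Figure D5:**
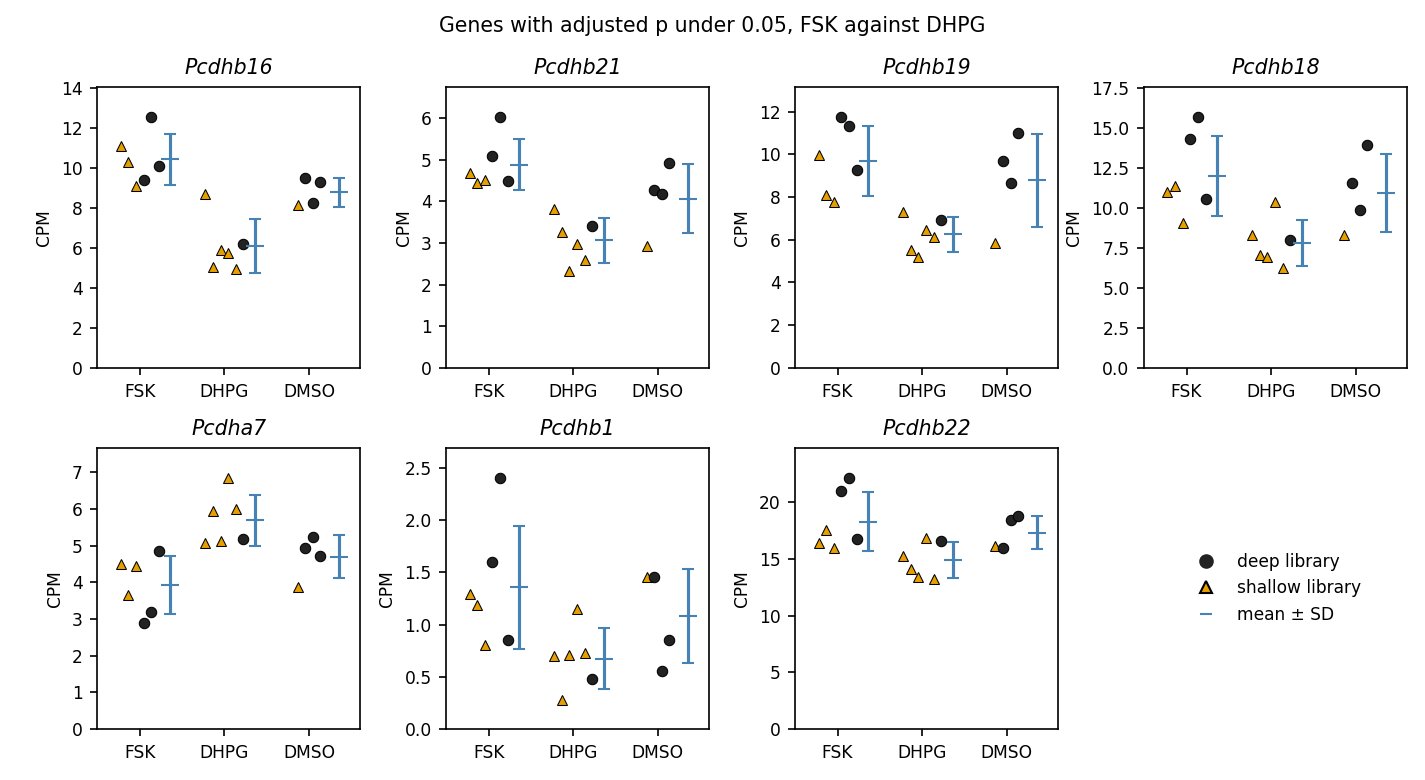
CPM (vertical axis from 0) of the 7 genes with an adjusted p under 0.05 in FSK against DHPG, by library, with DMSO beside them; black circles are deep and orange triangles shallow libraries, and bars are mean ± SD. For Pcdhb16, Pcdhb19 and Pcdhb21 all FSK points lie above all DHPG points, and for Pcdha7 all lie below.

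Of the 6 beta genes that passed, Pcdhb1 is the first of its cluster, and the other 5 lay within Pcdhb14 to Pcdhb22, the 9 genes at the 3′ end of the beta cluster (37447657 to 37521419), a stretch chosen after its values were seen. All 9 had a positive log2 fold change of FSK over DHPG, from 0.25 to 0.77 with a median of 0.37. All 9 were positive within deep libraries (median 0.42), where DHPG 6 is the only DHPG library, and within shallow libraries (median 0.43). Both sets are parts of the libraries by which the stretch was chosen, so these signs are not separate support. The other 13 beta genes, Pcdhb1 to Pcdhb13, had 7 positive and 6 negative values with a median of 0.03.

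Summed, the 9 genes reached 76.8, 81.8 and 95.8 CPM as lowest, median and highest in FSK libraries, 54.0, 59.2 and 70.3 CPM in DHPG libraries, and 65.8 to 88.2 CPM in DMSO libraries, so FSK and DHPG did not overlap. The 13 genes before them summed to 50.1, 77.1 and 80.7 CPM in FSK libraries, 64.5, 70.5 and 78.5 CPM in DHPG libraries and 71.6 to 76.2 CPM in DMSO libraries. Since the stretch was chosen by these values, neither the lack of overlap nor the contrast with the 13 genes is separate support. Set against DMSO, the 9 genes had a median log2 fold change of 0.13 in FSK and -0.41 in DHPG, comparisons that share the DMSO libraries. In FSK against DMSO, 7 of the 9 values were positive, but 4 without FSK 4 and FSK 5, while in DHPG against DMSO all 9 were negative. Within shallow libraries 3 of the 9 were positive in DHPG against DMSO, with a median of -0.10, and with the set as a term the median was -0.29.

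Markers of other cells moved in the same comparison. In FSK against DHPG 8 of 10 microglial markers, 5 of 10 astrocyte markers and 4 of 10 choroid plexus and ependymal markers were higher and none of these lower, while 2 of 10 excitatory markers were lower and none higher. Of all features 16.3% were higher and 14.4% lower, so the excitatory count is near the background. Of 9 oligodendrocyte lineage markers tested 4 were higher and 1 lower, and of 10 inhibitory neuron markers 2 were higher and 1 lower. With the set as a term 0 microglial markers passed and 1 choroid plexus and ependymal marker was higher. Of astrocyte markers 3 were then higher and 1 lower. In that fit 5 cycling-cell markers were higher, against 0 without the term, and 23.3% of all features passed. The part of these markers in the beta and alpha differences was not tested.

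The alpha genes had the opposite sign. All 11 had a negative log2 fold change of FSK over DHPG, with a median of -0.30, and 1 of them, Pcdha7, passed. Without FSK 4 and FSK 5 the median was -0.08 and 4 of the 11 were positive. The gamma medians were -0.15 in gamma A, 0.16 in gamma B and 0.11 in gamma C, and -0.32, -0.13 and -0.06 with the set as a term, where 4 gamma A genes passed as lower.

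Genes that control or work with the clustered protocadherins were counted from lists of known genes. The 23 regulators include CTCF, cohesin subunits and loaders and silencing factors. Of these 0 passed in FSK against DMSO (median log2 fold change 0.25) and 0 in DHPG against DMSO (-0.15). Adding the set term to FSK against DMSO, 2 were higher and 0 lower, beside 593 and 1029 of 17173 features. In FSK against DHPG 11 were higher and 2 lower, where 16.3% and 14.4% of all features were, with a median of 0.46 against 0.03 over all features. Smchd1, a chromatin protein that represses the clusters, averaged 49.7 ± 11.7 CPM in FSK and 27.9 ± 4.9 CPM in DHPG libraries, a log2 fold change of 0.83 ± 0.15 (adjusted p = 0.0164, edgeR). The cohesin-associated Pds5b and Pds5a had log2 fold changes of 0.73 ± 0.14 and 0.63 ± 0.13, each with an adjusted p of 0.0164 (edgeR). With the set as a term 10 regulators were higher and 1 lower in FSK against DHPG, beside 1959 and 2048 of 17173 features. Without FSK 4 and FSK 5 0 regulators passed, but only 3 of 16723 features did. Their median was then 0.34, with 15 of 23 positive.

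Of 28 genes for signalling partners and for cleavage of the proteins, 3 were higher and 0 lower in FSK against DHPG, with a median of -0.04. The counts in this and the next 2 lists stand beside 16.3% of all features higher and 14.4% lower, and none is far above those shares. These were Pik3r1, a regulatory subunit of phosphoinositide 3-kinase (0.70 ± 0.17), Adam10, the protease that sheds protocadherin ectodomains (0.38 ± 0.11), and the kinase gene Wnk1 (0.91 ± 0.27). Of 11 non-clustered protocadherins tested, 2 were higher, Pcdh10 (0.66 ± 0.16) and Pcdh7 (0.55 ± 0.16), and Pcdh1 was lower (-0.41 ± 0.10). Of 17 classical cadherins and catenins, Cdh2 or N-cadherin (0.33 ± 0.07), Cdh6 (1.05 ± 0.29) and Ctnna1 or alpha-catenin (0.60 ± 0.17) were higher. In both comparisons with DMSO none of these 3 lists had a gene past the limit by edgeR with TMM factors and no set term. When the set term was added to FSK against DMSO, 1 signalling or cleavage gene was higher and 1 lower. In that fit 1 non-clustered protocadherin was lower, and 9.45% of all features passed. Without FSK 4 and FSK 5 none of the 3 lists had a gene past the limit in FSK against DHPG, where only 3 of 16723 features passed.

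Immediate-early genes rose with forskolin. Of 20, 11 were higher in FSK against DMSO and 12 in FSK against DHPG, and 0 were lower, with median log2 fold changes of 1.81 and 0.98. In DHPG against DMSO 0 passed, with a median of 0.54. The 57 protocadherin genes had a biological coefficient of variation of 0.239 (median), against 0.229 over all features, values that lie close together.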

How the data were processed

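From the series, 16 total RNA libraries (TruSeq Stranded Total RNA, per the labels' protocols) were analysed; miRNA was not analysed here. The deposited table holds estimated counts per gene symbol, from Salmon on GRCm38 per the submitters' processing notes, with versions not given in the sources used here. Columns named Control were taken as DMSO libraries of the same number. The authors' deposited comparison tables, made with DESeq per the submitters' processing notes, give log2 fold changes, their standard errors, p-values, a test score and a mean signal of scaled counts; they are quoted only where named.

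Estimated counts were rounded to whole numbers. A library-wide fit over all 16 libraries used edgeR 4.0.16 (R 4.3.3): filterByExpr with a minimum count of 10, TMM factors, a robust quasi-likelihood F test per comparison and Benjamini-Hochberg adjustment over the 17173 features, with a limit of 0.05. Group levels carry an SD and log2 fold changes an SE after the sign ±. Deep and shallow libraries were divided at 30000000 total counts. Whole values were counted within 5e-04. The fit was tested on simulated data. No pair of libraries of the same treatment agreed within sampling noise (lowest chi-square per gene 5.94), and pairs across treatments were not examined. The pairs among FSK 1 to 3 were closest, at 5.94 to 12.0, and the next, DHPG 2 and DHPG 3, had 16.5. DESeq2 1.42.0 and limma 3.58.1 were alternatives, beside other scalings, filters, terms and libraries left out.

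Members and lists were chosen with earlier results of these data known. Named with values were the genes past the limit, or the 3 of smallest p, the 5 C-type genes against DMSO, and in each cluster the 3 highest and the lowest by mean; from lists, up to 3 passing genes. Coordinates are RefSeq's on GRCm38.p6; sequences are not used here. Depth limits only the counting error of each value; the library totals are given in the text.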

Additional observations from a re-analysis of the deposited data

Results flagged for a closer look

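In 9 of 63 groups of 4 to 6 libraries examined, 1 library lay far from the rest of its group by Dixon's criterion at 95%, which chance alone passes in about 1 of 20 groups. In 5 of the 9 this was DHPG 6 or DMSO 1 in a gamma sum or gene, each the only deep or the only shallow library of its group. Gamma B genes summed to 137 CPM in DHPG 6 against 74.8 to 91.6 CPM in the other DHPG libraries, and to 88.5 CPM in DMSO 1 against 136 to 143 CPM in the other DMSO libraries. Gamma C genes summed to 520.3 CPM in DHPG 6 against 223 to 283 CPM, and Pcdhgc4 had 57.6 CPM there against 25.9 to 37.8 CPM.

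Pcdhgc5 was high in both deep libraries numbered 6, with 128 CPM in FSK 6 against 57.8 to 72.3 CPM in the other FSK libraries and 157 CPM in DHPG 6 against 41.8 to 64.3 CPM in the other DHPG libraries. Pcdhga3 had 39.6 CPM in FSK 6 against 23.8 to 27.0 CPM in the other FSK libraries. Pcdhb16 had 8.68 CPM in DHPG 1 against 4.95 to 6.23 CPM in the other DHPG libraries. The beta genes summed to 137 CPM in FSK 4 against 153 to 162 CPM in the other FSK libraries.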

How the results depend on the processing

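The count of genes past the limit in FSK against DMSO and in DHPG against DMSO was 0 under all alternatives except limma-voom with sample quality weights, which gave 23 and 21 (35.2% and 34.7% of all features), and, in FSK against DMSO, the replicate block, which gave 3 (3.09%). In FSK against DHPG it was 7, and 16 by limma-voom (33.7% of all features), 4 without a filter on low counts (8.22%), 1 within deep (15.1%) and 0 within shallow libraries (0.0466%), 0 without FSK 4 and FSK 5 (0.0179%) and 2 when the set term was added to that (9.27%). With 1 library left out it ranged from 3 without FSK 5 (10.6%) to 10 without FSK 6 (29.6%). The cause was not tested. The set term gave 10. In deep against shallow libraries it was 28, and 20 to 32 with 1 library left out. Summed levels moved by less than 1 SD in all 132 alternative values. This says little, since leaving 1 library out cannot move a group mean by 1 SD. The SD also holds the spread between deep and shallow libraries.

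The replicate block gave 3, 0 and 6 genes in FSK against DMSO, DHPG against DMSO and FSK against DHPG. The 3 were Pcdhga3 (log2 fold change -0.53, adjusted p = 0.0354, edgeR), Pcdhgb1 and Pcdhgb8, and in FSK against DHPG Pcdhb1 and Pcdhb22 lost the call. The labels do not say that a number pairs libraries, and correlations of same-numbered libraries ran from -0.49 to 0.46, so the block is only an alternative.

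Of the 7 genes past the limit in FSK against DHPG, 138 of 196 alternative values kept direction and call, 58 lost the call and 0 changed sign. Against DMSO, 22 values of genes that did not pass changed sign. In FSK against DMSO these were Pcdhac1 within deep libraries (-0.37), Pcdhac2 by limma-voom (0.21), without FSK 4 and FSK 5 (0.15) and with 1 library left out (-0.22 to 0.022), Pcdhgc3 within deep libraries (0.095), and Pcdhgc5 within shallow libraries (0.38) and without FSK 4 and FSK 5 with the set term (0.39). In DHPG against DMSO Pcdhb19 turned within shallow libraries (0.070). With the set term the values were -0.053 for Pcdhac1, -0.14 for Pcdhac2, 0.0015 for Pcdhgc4 and 0.019 for Pcdhgc5. Within deep libraries they were -0.17, -0.12, 0.25 and 0.49 for the same genes. Within shallow libraries Pcdhac2 was -0.033 and Pcdhgc5 0.058. Without FSK 4 and FSK 5, with the set term, Pcdhac2 was -0.032, Pcdhgc4 0.026 and Pcdhgc5 0.20.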
